A study of Mus musculus with 16 samples.

Results

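The nuclear genes for the subunits of the mitochondrial respiratory chain were followed through normal mouse mammary gland and STAT5-driven mammary tumours. Members were chosen by gene symbol alone: those that begin with Ndufa, Ndufb, Ndufc, Ndufs, Ndufv, Uqcr, Cox4 to Cox8, Atp5, or Sdha to Sdhd, except Cox8b and Cox7a1. This gave 85 of 12394 genes with a probe set of their own, of which 77 encode subunits and 8 (Ndufaf1, Ndufaf3, Ndufaf4, Ndufaf5, Ndufaf7, Sdhaf1, Sdhaf2 and Sdhaf4) encode assembly factors of complexes I and II. A total of 84 members passed the filter on low signals, with 33 genes of complex I, 4 of complex II, 8 of complex III, 14 of complex IV, 17 of ATP synthase and the 8 assembly factors. The remaining member, Cox4i2, a complex IV isoform of lung, did not pass, with levels between 3.99 and 5.19 on all 16 arrays.

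Total RNA was hybridised to Affymetrix Mouse Genome 430A 2.0 arrays, and all mice were of the FVB/N background. The groups were 3 arrays of normal mammary gland, without a transgene named in the labels, 7 arrays of mammary tumours from mice with the transgene STAT5ca, a constitutively active STAT5, and 6 arrays of mammary tumours from mice with the transgene STAT5Δ750, a STAT5 truncated at its C-terminus. STAT5 is the transcription factor through which prolactin acts on mammary epithelium. Ages, sex, gland stage, tumour histology and the promoter that drives the transgenes are not given in the labels, nor is it said that arrays of a group came from separate mice, so the p-values measure the spread between these arrays. Levels are log2 of the deposited signal plus 8, one probe set per gene, and changes are differences of group means on that scale ± their standard error.

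The respiratory chain passes electrons from NADH (complex I) and succinate (complex II) through ubiquinone to complex III, cytochrome c and complex IV, and ATP synthase uses the proton gradient that complexes I, III and IV build. Complex II is also an enzyme of the tricarboxylic acid cycle and builds no gradient. Most subunits are encoded in the nucleus, and their promoters often carry sites for NRF1, the ETS factor GABP and YY1. Heart and skeletal muscle use their own isoforms of some complex IV subunits, among them Cox6a2, Cox7a1 and Cox8b, and brown fat, rich in mitochondria, also uses Cox7a1 and Cox8b. Skeletal muscle, brown fat and white fat can all lie in or next to the mammary fat pad.

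Promoter windows from RefSeq (build GRCm38.p6, 250 bases before to 50 after the start of the gene) were found for 71 of the 85 members. The letters searched, on both strands, were GCGCATGC for NRF1, CCGGAAG for ETS factors, AAGATGGC for YY1, AAGGTCA for nuclear receptors of the ERR type and CAGCTG for an E-box. No letters searched for one factor are contained in those of another. The NRF1 letters stood in 11 of the 71 windows (15.5%), against 5.01% of the 9883 windows of genes on the array. The ETS letters stood in 20 (28.2%, against 16.4%), the YY1 letters in 9 (12.7%, against 4.39%), the ERR letters in 7 (9.86%, against 4.35%) and the E-box letters in 5 (7.04%, against 18.4%). The NRF1 letters were in 3 of the 20 windows of members later found lower in either tumour group and in 8 of the 51 of other tested members, so that they are found on both sides. For the ETS letters the counts were 4 of 20 and 16 of 51, and for the YY1 letters 5 of 20 and 4 of 51. The windows printed here show NRF1 letters before the start of a gene that was lower in both tumour groups (Sdhb) and of 4 that were not called in either (Cox6a1, Ndufa6, Atp5g2 and Atp5k), followed by ETS letters in Sdhd and Ndufs3, each called in at least 1 group, and in Cox6b1 and Atp5h, called in neither. Capitals mark the match, forward or reverse, each sequence is read along the gene, and a match is no proof of binding.
Sdhb, NRF1, chr4:140961207-140961234 (+): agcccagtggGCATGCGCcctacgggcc
Cox6a1, NRF1, chr5:115349101-115349130 (-): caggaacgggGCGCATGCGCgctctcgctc
Ndufa6, NRF1, chr15:82354357-82354384 (-): ccgcggtagaGCATGCGCattgcagagc
Atp5g2, NRF1, chr15:102671070-102671099 (-): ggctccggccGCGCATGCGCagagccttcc
Atp5k, NRF1, chr5:108434430-108434459 (-): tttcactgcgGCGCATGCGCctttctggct
Sdhd, ETS, chr9:50603879-50603905 (-): cgtctcctgcCTTCCGGttcacgcttc
Ndufs3, ETS, chr2:90904732-90904758 (-): ccgcgtccgcCCGGAAGaagagtcact
Cox6b1, ETS, chr7:30626126-30626152 (-): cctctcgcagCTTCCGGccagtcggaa
Atp5h, ETS, chr11:115419941-115419967 (-): aaggagagaaCTTCCGGcaactctctt
In Cox6a1, Atp5g2 and Atp5k the forward and reverse letters overlap in a palindrome. The first base of the match lies 54 bases before the start in Sdhb, 162 in Cox6a1, 83 in Ndufa6, 42 in Atp5g2, 50 in Atp5k, 46 in Sdhd, 27 in Ndufs3, 28 in Cox6b1 and 38 in Atp5h.

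Several arrays stood apart before any gene was compared. STAT5Δ750_160 had a highest signal of 5972, against 7934 to 12074 on the other 15 arrays, and the lowest mean over subunits of all arrays. STAT5ca_177 had a summed luminal marker signal of 821, against 5089 to 13555 on the glands and a median of 30301 among STAT5ca tumours. The 3'/5' ratio of the beta-actin controls, which rises as RNA degrades, was 1.07 to 1.25 on the glands, 1.76 to 5.38 on STAT5ca arrays and 1.27 to 3.52 on STAT5Δ750 arrays, so that every tumour lay above every gland in this ratio. The same ratio of the Gapdh controls overlapped between tumours and glands. It was 0.84 to 1.03 on the glands, 0.79 to 1.71 on STAT5ca arrays and 0.76 to 0.86 on STAT5Δ750 arrays. In bulk tissue, fewer cells of a type and less RNA per cell cannot be told apart.

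The comparison of each tumour group with gland asked how tumours that arise with each transgene differ from normal tissue. Part of the respiratory chain was lower in both kinds of tumour, led by the muscle isoform Cox6a2, the complex I subunit Ndufs1 and the complex II subunit Sdhb, while ATP synthase had the class median nearest 0 as deposited, and no member was called higher. In STAT5ca tumours 16 of 84 members fell (19.0%), where 13.2% of all 9252 genes tested were called lower (limma, Benjamini-Hochberg adjusted p under 0.05). In STAT5Δ750 tumours 20 of 84 fell (23.8%), beside 14.0% of all genes, and 0 members rose in either group, beside 6.72% and 7.61% of all genes called higher. The share of members called lower was thus not far above that of all genes. Members had a median level of 10.78, against 7.76 over all genes tested. Their median standard error was 0.23 in both comparisons, against 0.33 over all genes. The shares were not adjusted for these differences. At an unadjusted p under 0.05, 34 and 43 of the 84 members differed, in either direction, beside 3075 and 3252 of all 9252 genes. The median change over the members was -0.42 in STAT5ca and -0.50 in STAT5Δ750 tumours, against -0.02 and -0.04 over all genes tested (-0.13 and -0.37, against 0.25 and 0.08, with the common median described further on), and 73 and 78 of the 84 were below 0. Both comparisons share the 3 glands. A total of 12 members were lower in both, which is 75% of the STAT5ca list and 60% of the STAT5Δ750 list, and 24 in either.

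**Figure D1:**
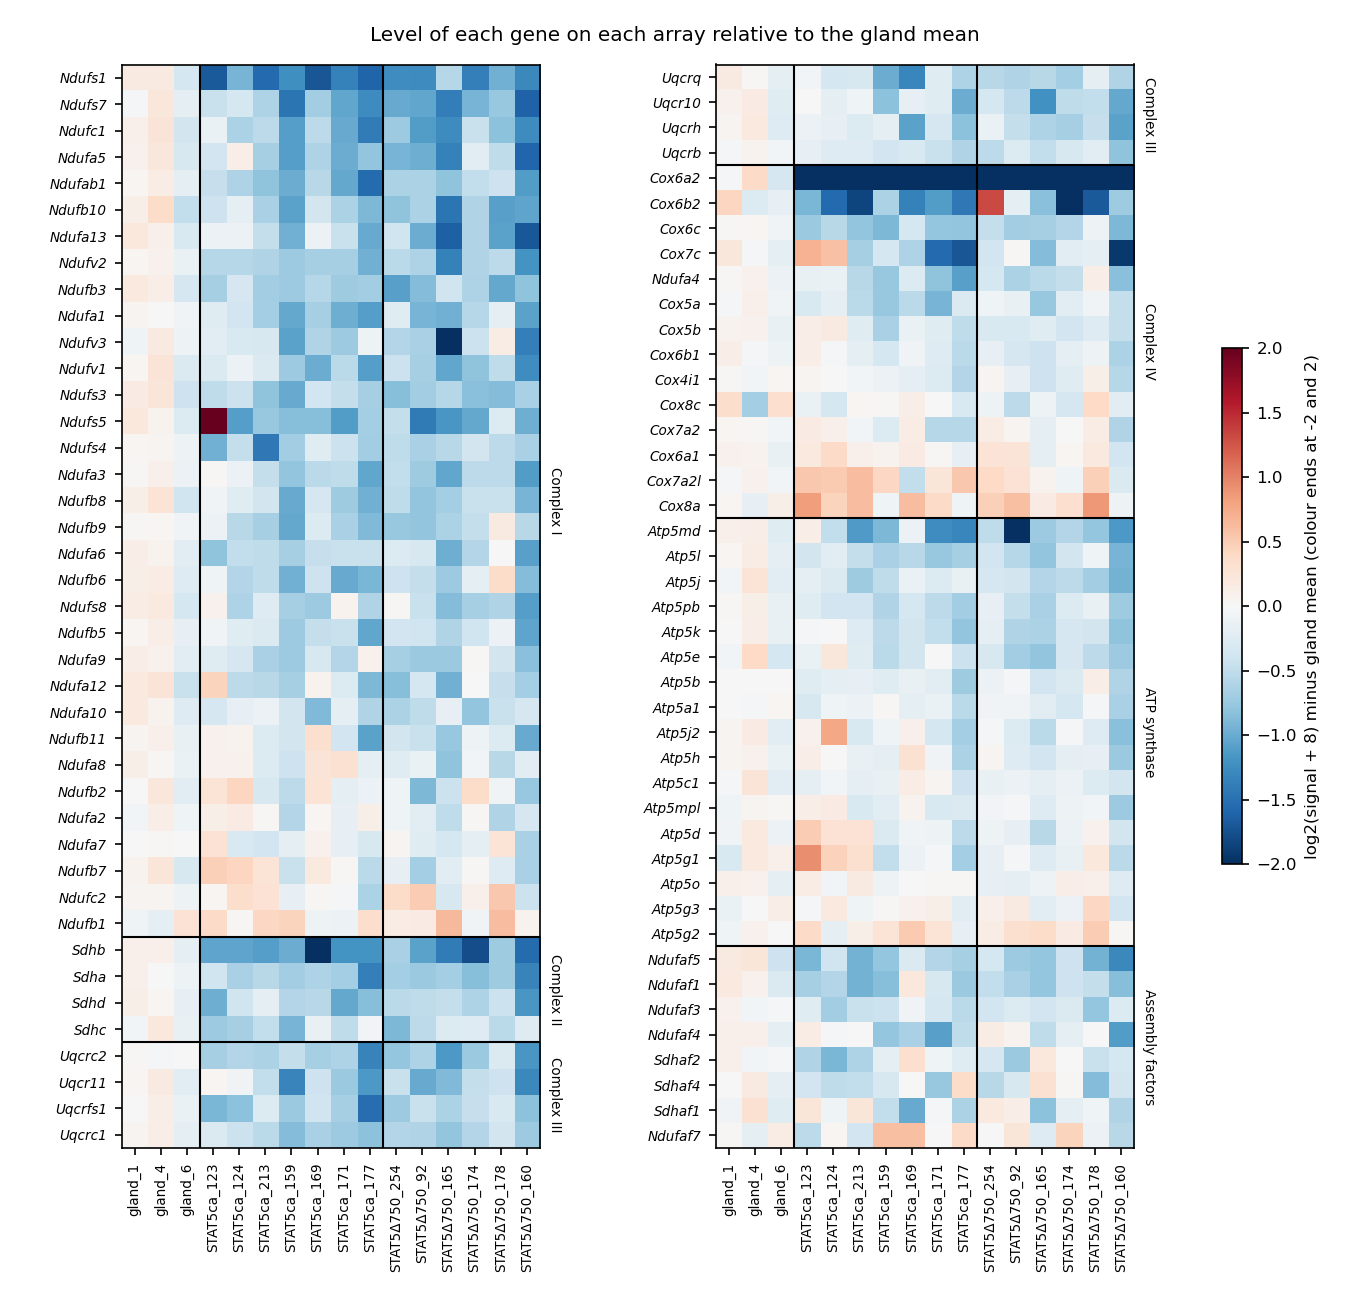
Each row is 1 of the 84 tested genes, grouped by complex, and each column 1 of the 16 arrays. Colour gives log2(signal + 8) minus the mean of the 3 glands, with blue below and red above the gland mean and the colour ends at -2 and 2. Rows such as Ndufs1, Sdhb and Cox6a2 are blue on all 13 tumour arrays, while most rows of ATP synthase are paler.

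The same contrast showed in the arrays themselves. For 26 members (31.0%) every STAT5ca tumour lay below every gland, against 13.3% of all genes tested, and for 36 (42.9%) every STAT5Δ750 tumour did, against 20.3%. These shares, too, were not adjusted for the higher level of the members. For 0 members did all tumours of a group lie above all glands. The mean over subunits, each relative to its own gland mean and without Cox6a2, was 0.06, 0.10 and -0.15 on glands 1, 4 and 6. It ran from -0.69 to -0.11 with a median of -0.37 on the STAT5ca arrays, and from -0.81 to -0.26 with a median of -0.44 on the STAT5Δ750 arrays. STAT5ca_123, at -0.11, lay just above gland 6, and the other tumour arrays lay below all glands. With the common median scaling the same mean overlapped, with 8 of the 13 tumours above the lowest gland.

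How many members passed depended on the glands and on the scaling. Without gland 1, 4 or 6 in turn, 3, 3 and 10 members were lower in STAT5ca tumours and 4, 3 and 15 in STAT5Δ750 tumours. Over all genes tested, 792, 740 and 942 were then lower in STAT5ca tumours and 786, 710 and 941 in STAT5Δ750 tumours. Without gland 1 or 4 the share of members called lower was thus below that of all genes. Cox6a2, Ndufs1 and Sdhb kept their calls in both groups whichever single array was left out, and 13 of the 16 STAT5ca calls and 17 of the 20 STAT5Δ750 calls were lost without at least 1 array. With every array scaled to a common median signal, 3 and 6 members were lower, beside 9.37% and 10.4% of all genes, and that scaling moved the median of all genes to 0.25 and 0.08. All calls then divided into 1284 higher and 867 lower genes in STAT5ca tumours, against 622 and 1222 as deposited. The members' median relative to all genes changed little, at -0.38 and -0.45 with the common median, -0.45 and -0.51 with quantile normalization and -0.40 and -0.46 as deposited. Under the common median the 3 in STAT5ca tumours were Ndufs1, Sdhb and Cox6a2, and the 6 in STAT5Δ750 tumours were these with Sdha, Ndufs7 and Uqcrc2. In a setting added after the data were seen, STAT5ca_177, STAT5Δ750_174 and STAT5Δ750_178, tumours with high muscle signal, were left out. Then 18 and 30 members were lower, beside 1617 and 1468 of all genes. In another such setting, without STAT5Δ750_160 and with quantile normalization, 18 and 14 members were lower, beside 1160 and 1145 of all genes.

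**Figure D2:**
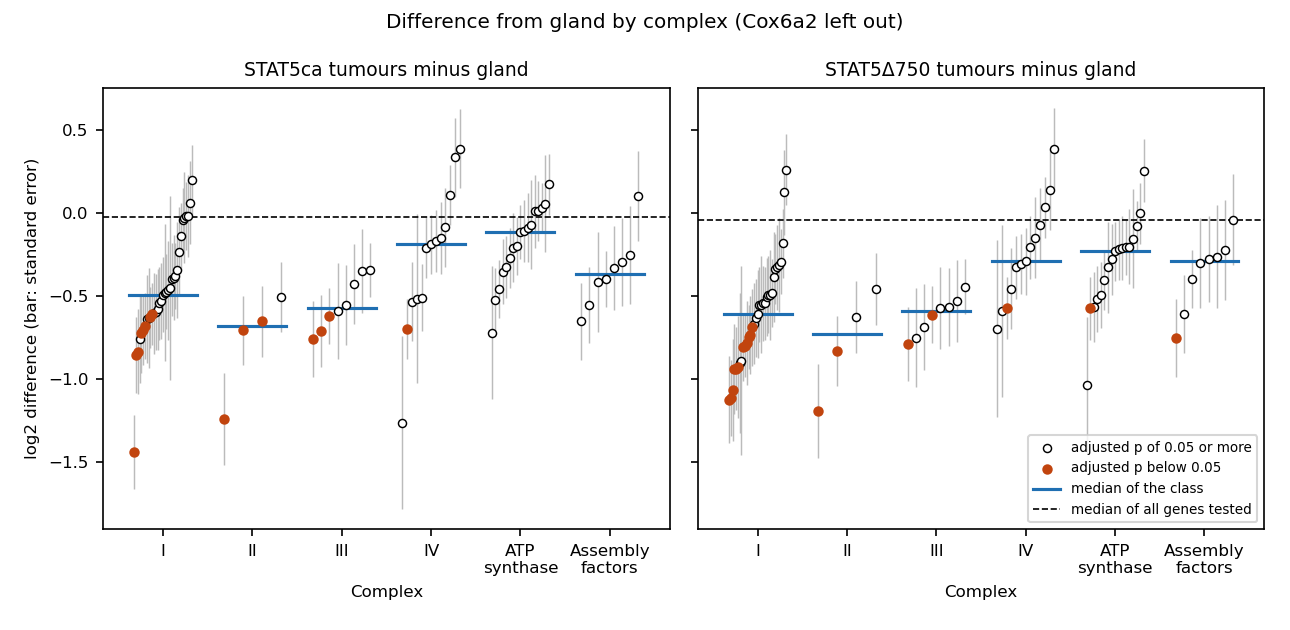
Each point is the log2 difference from gland of 1 gene, with its standard error, sorted within its complex, for STAT5ca tumours on the left and STAT5Δ750 tumours on the right. Blue lines are class medians, and the dashed line is the median of all genes tested. The medians of complexes I, II and III lie below those of complex IV and ATP synthase on both sides.

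Complex II was the class with the lowest median change, at -0.68 in STAT5ca and -0.73 in STAT5Δ750 tumours, with 3 and 2 of its 4 genes called lower. Sdhb, the iron-sulfur subunit that hands electrons towards ubiquinone (probe set 1418005), stood at 11.76, 11.76 and 11.46 on glands 1, 4 and 6. Its levels ran from 9.55 to 10.67 with a median of 10.56 in STAT5ca tumours and from 9.88 to 11.01 with a median of 10.42 in STAT5Δ750 tumours. All tumours thus lay below all glands, with STAT5ca_169 lowest and STAT5Δ750_254 highest. The change was -1.24 ± 0.28 (adjusted p = 0.00494) and -1.19 ± 0.28 (adjusted p = 0.00748), about 2.37 and 2.29 times lower on the scale of signal plus 8. It was not called in STAT5ca tumours with the actin ratio in the model (adjusted p = 0.0513), the one alternative of 30 that lost it there, and was called under all 30 in STAT5Δ750 tumours.

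Sdha, the flavoprotein that oxidises succinate, stood at 11.48, 11.39 and 11.27 on the glands, from 10.02 to 10.98 with a median of 10.74 in STAT5ca tumours and from 10.05 to 10.71 with a median of 10.65 in STAT5Δ750 tumours. The groups did not overlap, and the lowest arrays were STAT5ca_177 and STAT5Δ750_160. Its change was -0.71 ± 0.21 (adjusted p = 0.0240) and -0.83 ± 0.21 (adjusted p = 0.0112). The first call was lost without gland 1, 4 or 6 (adjusted p from 0.0539 to 0.108) and the second without gland 1 or 4 (0.0584 and 0.0524). Sdhc and Sdhd anchor the enzyme in the membrane. Sdhd stood at 10.72, 10.63 and 10.43 on the glands and changed by -0.65 ± 0.21 in STAT5ca tumours (adjusted p = 0.0422) and -0.63 ± 0.22 in STAT5Δ750 tumours (adjusted p = 0.0531), so that only the first was called. That call was lost without any 1 of 9 arrays, namely glands 1, 4 and 6, STAT5ca_123, STAT5ca_159, STAT5ca_171, STAT5Δ750_254, STAT5Δ750_92 and STAT5Δ750_174, with adjusted p from 0.0517 to 0.166. The Sdhd call was also lost with the mean of its probe sets. Sdhc, at -0.51 ± 0.21 and -0.46 ± 0.22, was called in neither (adjusted p = 0.108 and 0.146).

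Complex I, the NADH dehydrogenase, had 8 of its 33 genes lower in one tumour group (STAT5ca) and 12 in the other (STAT5Δ750). Its medians were -0.49 and -0.61, and 31 of 33 genes were below 0 in each. Ndufs1, which carries iron-sulfur clusters in the matrix arm where NADH is oxidised (probe set 1425143), had the largest change of the complex in STAT5ca tumours, and Ndufs7 and Ndufs1 had nearly the same in STAT5Δ750 tumours. It stood at 10.93, 10.93 and 10.39 on glands 1, 4 and 6, from 9.03 to 9.82 with a median of 9.20 in STAT5ca tumours and from 9.38 to 10.18 with a median of 9.50 in STAT5Δ750 tumours. Gland 6 was the lowest gland, and all 13 tumours lay below it. The change was -1.44 ± 0.22 (adjusted p = 0.000303) and -1.12 ± 0.23 (adjusted p = 0.00300), 2.71 and 2.17 times lower, and passed under all 30 alternatives in both groups.

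Among the other subunits of the matrix arm, Ndufs7, which holds the last iron-sulfur cluster before ubiquinone, stood at 11.01, 11.25 and 10.83 on the glands, from 9.57 to 10.69 with a median of 10.34 in STAT5ca tumours and from 9.41 to 10.28 with a median of 10.01 in STAT5Δ750 tumours. It changed by -0.84 ± 0.26 (adjusted p = 0.0318) and -1.12 ± 0.26 (adjusted p = 0.00692), with no overlap. The first call was lost without gland 1, 4 or 6, STAT5ca_159 or STAT5ca_171 (adjusted p from 0.0501 to 0.162) and the second without gland 4 (0.0521). Ndufv2, a partner in the NADH-oxidising module, changed by -0.68 ± 0.20 (adjusted p = 0.0255) and -0.81 ± 0.21 (adjusted p = 0.0114), and its calls were lost without gland 1, 4 or 6 (0.0515 to 0.121) and without gland 1 or 4 (0.0528 and 0.0659). The first Ndufv2 call was also lost with the mean of its probe sets. Ndufv1, which binds NADH, changed by -0.58 ± 0.25 (adjusted p = 0.112) and -0.78 ± 0.25 (adjusted p = 0.0366). Only its second value was called, and not without gland 1, gland 4, STAT5Δ750_165, STAT5Δ750_174 or STAT5Δ750_160 (0.0563 to 0.181). This Ndufv1 call was also lost with the common median, the mean of its probe sets and the Gapdh ratio in the model. Over all alternatives the change ran from -1.02 to -0.33, with adjusted p up to 0.437. In all, 5 and 6 of the 14 matrix arm genes and 2 and 5 of the 18 membrane arm genes were called lower. The division into arms was made after values were seen.

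In the membrane arm, Ndufb3, an accessory subunit, stood at 11.02, 10.95 and 10.49 on the glands, from 10.10 to 10.48 with a median of 10.13 in STAT5ca tumours and from 9.73 to 10.42 with a median of 9.98 in STAT5Δ750 tumours. STAT5ca_124, the highest of its group, lay just under gland 6, and the groups did not overlap. It changed by -0.63 ± 0.18 (adjusted p = 0.0246) and -0.80 ± 0.19 (adjusted p = 0.00715), and both calls were lost without gland 1 or 4 (0.142 and 0.132, and 0.0540 and 0.0521). Ndufab1, the acyl carrier protein that is also a complex I subunit, changed by -0.86 ± 0.23 (adjusted p = 0.0144) and -0.69 ± 0.23 (adjusted p = 0.0462). Its first call was lost without gland 1 or 4 (0.0658 and 0.0861). The second was lost without any 1 of 12 arrays, which were all 3 glands, STAT5ca_124, STAT5ca_171, STAT5ca_159, STAT5ca_213, and all STAT5Δ750 arrays but STAT5Δ750_178 (0.0501 to 0.184). Both Ndufab1 calls were also lost with the mean of its probe sets. Ndufa13, also known as GRIM-19, changed by -0.46 ± 0.30 (adjusted p = 0.300) and -1.07 ± 0.31 (adjusted p = 0.0218), and the second call was lost without gland 1 or 4 (0.102 and 0.0960). The other called genes of complex I lay outside the rule for named genes and were added after their values were seen. Ndufs3, a core subunit of the matrix arm, stood at 11.17, 11.26 and 10.61 on the glands, from 10.00 to 10.64 with a median of 10.50 in STAT5ca tumours and from 10.14 to 10.44 with a median of 10.25 in STAT5Δ750 tumours. One STAT5ca array lay above gland 6, and no STAT5Δ750 array did. Ndufs3 changed by -0.61 ± 0.19 (adjusted p = 0.0313) and -0.75 ± 0.19 (adjusted p = 0.0119). The first call was lost without gland 1, gland 4, STAT5ca_159 or STAT5ca_213 (0.0520 to 0.192) and the second without gland 1 or 4 (0.0725 and 0.0934).

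The complex I genes called in STAT5ca tumours alone were Ndufa1 and Ndufs4, and for both the lowest gland lay above all 7 of these tumours. Ndufs4, whose human gene is mutated in Leigh syndrome, stood at 9.97, 9.99 and 9.83 on the glands and from 8.50 to 9.68 in STAT5ca tumours, and changed by -0.70 ± 0.21 (adjusted p = 0.0292; not called without gland 1, 4 or 6, 0.0634 to 0.121). Ndufa1, an accessory subunit needed for assembly, changed by -0.73 ± 0.24 (adjusted p = 0.0427). It was not called without any 1 of 8 arrays, which were the 3 glands, STAT5ca_159, STAT5ca_169, STAT5ca_171, STAT5ca_213 and STAT5Δ750_174 (0.0517 to 0.142). In STAT5Δ750 tumours 4 accessory subunits were called besides those above. Ndufb10 changed by -0.94 ± 0.25 (adjusted p = 0.0152) and Ndufc1 by -0.94 ± 0.27 (adjusted p = 0.0237), and both calls were lost without gland 1 or 4 (0.0731 and 0.114 for Ndufb10, 0.0963 and 0.130 for Ndufc1). Ndufa3 changed by -0.74 ± 0.23 (adjusted p = 0.0353; lost without gland 1, 4 or 6, STAT5Δ750_92, STAT5Δ750_165 or STAT5Δ750_160, 0.0516 to 0.141). Ndufa5 changed by -0.93 ± 0.31 (adjusted p = 0.0415), with the highest STAT5Δ750 array at 10.45 and gland 6 at 10.36. Its call was lost without any 1 of 8 arrays, namely the 3 glands, STAT5ca_213, STAT5Δ750_254, STAT5Δ750_92, STAT5Δ750_165 and STAT5Δ750_160 (0.0515 to 0.181).

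The remaining 19 genes of complex I were called in neither group, with changes from -0.90 to 0.26. Ndufb1 was highest, at 0.20 ± 0.21 and 0.26 ± 0.22, from a low level of 6.43 ± 0.25 (SD, n = 3) on the glands. Ndufa2 (-0.04 ± 0.19), Ndufa8 (-0.02 ± 0.21), Ndufb2 (-0.03 ± 0.28) and Ndufc2 (-0.02 ± 0.25) lay near 0 in STAT5ca tumours. Ndufb9, at -0.59 ± 0.23 (adjusted p = 0.0812), had every STAT5ca array below every gland.

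In complex III, which passes electrons from ubiquinol to cytochrome c, all 8 genes were below 0 in both groups, with medians of -0.57 and -0.59, and 3 and 2 were called. Uqcrc2, a core protein, stood at 11.53, 11.47 and 11.52 on the glands, from 10.17 to 11.03 with a median of 10.87 in STAT5ca tumours and from 10.33 to 11.22 with a median of 10.75 in STAT5Δ750 tumours. The 3 glands lay between 11.47 and 11.53, and every tumour was lower. Its change was -0.71 ± 0.22 (adjusted p = 0.0305) and -0.79 ± 0.22 (adjusted p = 0.0193), and both calls were lost without gland 1, 4 or 6 (0.0885 to 0.108, and 0.0611 to 0.0739). Uqcrc1, the other core protein, changed by -0.62 ± 0.17 (adjusted p = 0.0167) and -0.61 ± 0.17 (adjusted p = 0.0199), lost without gland 1 or 4 (0.0819 and 0.105, and 0.0858 and 0.112). Uqcrfs1, the Rieske iron-sulfur protein, changed by -0.76 ± 0.23 (adjusted p = 0.0284) and -0.57 ± 0.23 (adjusted p = 0.0979). Only the first was called, and it was lost without gland 1, 4 or 6 (0.0580 to 0.135). The small subunits Uqcr10, Uqcr11, Uqcrb, Uqcrh and Uqcrq were called in neither group, with changes from -0.75 to -0.34. Of these, Uqcrb had all tumours of both groups below all glands, at 12.95 ± 0.06 (SD, n = 3) on the glands, 12.61 ± 0.15 (n = 7) in STAT5ca and 12.51 ± 0.22 (n = 6) in STAT5Δ750 tumours.

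Complex IV split into a muscle isoform with a very large change and general subunits with small ones. Cox6a2, the heart and skeletal muscle isoform of subunit VIa (probe set 1417607), stood at 11.77, 12.19 and 11.48 on glands 1, 4 and 6. Its levels ran from 4.10 to 7.88 with a median of 5.14 in STAT5ca tumours and from 4.75 to 9.62 with a median of 5.73 in STAT5Δ750 tumours. The tumours were far below the glands, and the highest were STAT5ca_177 in the first group and STAT5Δ750_178 in the second. The change was -6.40 ± 0.91 (adjusted p = 0.000138) and -5.42 ± 0.93 (adjusted p = 0.000863), and passed under all 30 alternatives. Most tumours were near the signal used as the filter for low values, so that the size of the change depends on the settings. It ran from -6.82 to -4.87 and from -6.47 to -4.50 over the alternatives. Cox6a1, the isoform of other tissues, was at 11.89 to 12.14 on the glands, with medians of 12.14 and 12.17 in the tumour groups, and changed by 0.11 ± 0.18 and 0.04 ± 0.18 (adjusted p = 0.712 and 0.911).

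The 2 isoform genes that the rule left out by name were also lower. Cox8b stood at 11.88, 12.12 and 11.30 on the glands and changed by -6.19 ± 1.07 (adjusted p = 0.000746) and -6.23 ± 1.10 (adjusted p = 0.00104). Cox7a1 stood at 10.87, 10.95 and 9.84 and changed by -3.58 ± 0.57 (adjusted p = 0.000407) and -3.94 ± 0.59 (adjusted p = 0.000285). Gland 6 was the lowest gland for all 3 tissue isoforms. Their general counterparts were not called: Cox7a2 changed by -0.15 ± 0.22 and -0.07 ± 0.22 (adjusted p = 0.668 and 0.849), and Cox8a by 0.39 ± 0.24 in each group (adjusted p = 0.272 and 0.273).

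**Figure D3:**
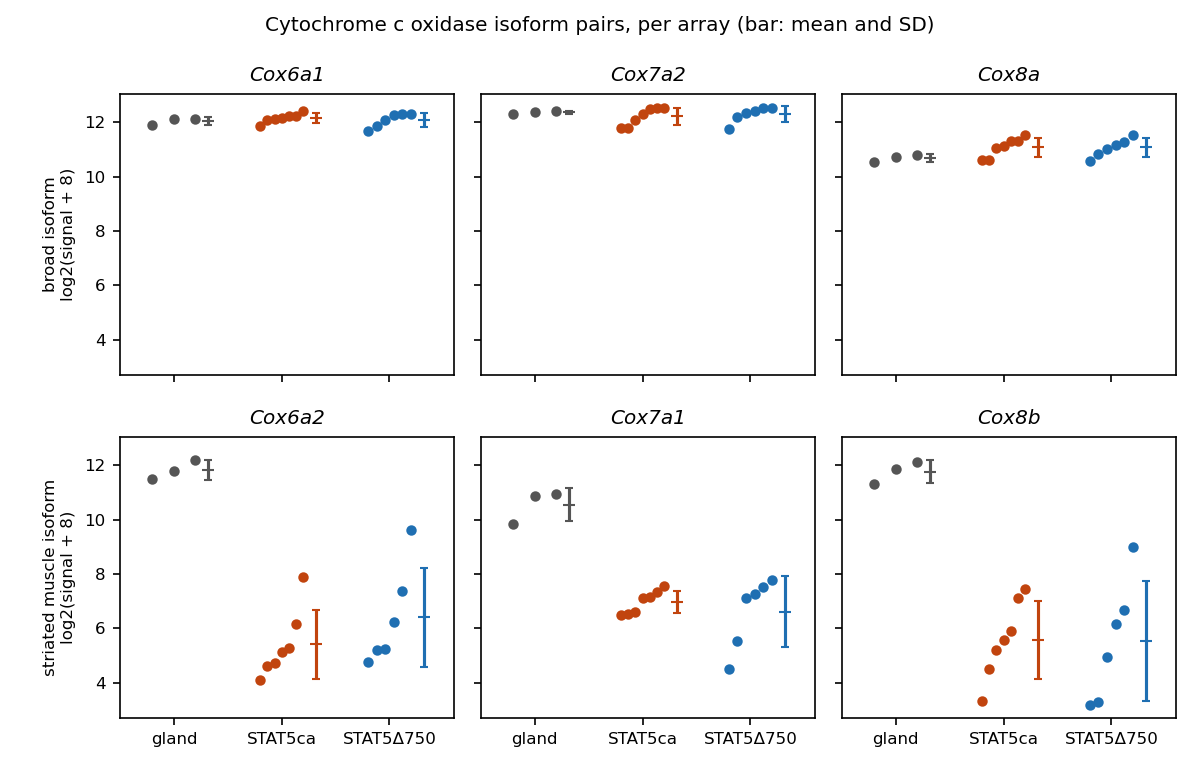
Each point is log2(signal + 8) of 1 gene on 1 array, with the group mean and SD beside the points. The upper row has the broadly expressed isoforms Cox6a1, Cox7a2 and Cox8a, and the lower row the striated muscle isoforms Cox6a2, Cox7a1 and Cox8b, which are at 9.84 to 12.19 on the glands and 9.62 or lower on the tumours.

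Among the remaining 13 tested complex IV genes the median change was -0.19 in STAT5ca and -0.29 in STAT5Δ750 tumours, and Cox6c was the only one called. Cox6c, a small subunit with a single isoform, stood at 12.31, 12.32 and 12.20 on the glands, from 11.37 to 11.93 with a median of 11.51 in STAT5ca tumours and from 11.38 to 12.17 with a median of 11.65 in STAT5Δ750 tumours. Its change was -0.70 ± 0.18 (adjusted p = 0.0129) and -0.57 ± 0.19 (adjusted p = 0.0393). The first call was lost without gland 1 or 4 (0.0619 and 0.0670), and the second without gland 1, 4 or 6, STAT5Δ750_92, STAT5Δ750_165, STAT5Δ750_174 or STAT5Δ750_160 (0.0602 to 0.143). The second Cox6c call was also lost with the mean of its probe sets. Cox4i1, which carries the ATP-sensing site of the enzyme, Cox5a, Cox5b and Cox6b1 changed by between -0.51 and -0.17 and none was called. Ndufa4, named as a complex I gene but a subunit of complex IV, changed by -0.53 ± 0.24 and -0.45 ± 0.24 (adjusted p = 0.131 and 0.198). Cox7a2l, a factor of supercomplex assembly, changed by 0.34 ± 0.24 and 0.14 ± 0.24 and was not called either. Cox6b2 and Cox8c, isoforms of testis, lay between 3.58 and 6.96 on all arrays, and Cox7c was low on this probe set too, between 5.19 and 7.82.

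ATP synthase, which makes ATP from the proton gradient, had the medians nearest 0 as deposited. The call was made for 0 of 17 genes in the STAT5ca group and 1 in the STAT5Δ750 group, with medians of -0.11 and -0.23. With the common median, the STAT5ca median turned to 0.18, and that of complex IV turned from -0.20 to 0.10, which was then nearer 0. In the STAT5ca and STAT5Δ750 groups, 2 and 6 of the 17 genes had an unadjusted p under 0.05, beside 3075 and 3252 of all 9252 genes. Atp5b, the catalytic beta subunit, was at 12.13 on each of the 3 glands, from 11.42 to 11.99 with a median of 11.91 in STAT5ca tumours and from 11.52 to 12.26 with a median of 11.93 in STAT5Δ750 tumours. All STAT5ca tumours lay below the glands, while STAT5Δ750_178 lay above them, and the change was -0.27 ± 0.18 and -0.22 ± 0.19 (adjusted p = 0.316 and 0.424). Atp5j, coupling factor 6, stood at 11.28, 11.62 and 11.12 on the glands and changed by -0.32 ± 0.19 (adjusted p = 0.245) and -0.57 ± 0.19 (adjusted p = 0.0424). The second, the single call of the complex, was lost without any 1 of 9 arrays, which were all 3 glands, STAT5ca_159, STAT5ca_171, STAT5Δ750_165, STAT5Δ750_174, STAT5Δ750_178 and STAT5Δ750_160 (0.0501 to 0.234). The 3 genes of the c-ring, Atp5g1, Atp5g2 and Atp5g3, encode the same mature protein, and their changes were 0.06, 0.17 and 0.01 in STAT5ca and -0.15, 0.26 and 0.00 in STAT5Δ750 tumours, none of them called. Atp5md, a small subunit of the membrane part, had the lowest change of the complex, -0.72 ± 0.40 and -1.04 ± 0.41 (adjusted p = 0.227 and 0.0840), with STAT5Δ750_92 at 9.02 and the other tumours at 10.19 or higher. Atp5l and Atp5pb, of the membrane part and the stator, changed by -0.52 ± 0.19 and -0.52 ± 0.20, and by -0.46 ± 0.17 and -0.41 ± 0.18, and were not called (adjusted p from 0.0706 to 0.117). The catalytic alpha subunit, Atp5a1, changed by -0.20 ± 0.17 and -0.23 ± 0.18 and the central stalk gene Atp5c1 by -0.11 ± 0.16 and -0.20 ± 0.17, and neither was called.

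Of the 8 assembly factors, 0 fell in STAT5ca and 1, Ndufaf5, in STAT5Δ750 tumours, with medians of -0.36 and -0.29. Ndufaf5, an enzyme that modifies a complex I subunit early in assembly, stood at 7.78, 7.84 and 7.18 on the glands and changed by -0.65 ± 0.23 (adjusted p = 0.0579) and -0.75 ± 0.24 (adjusted p = 0.0337). The call was lost without gland 1, gland 4, STAT5Δ750_165, STAT5Δ750_178 or STAT5Δ750_160 (0.0539 to 0.172).

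The complexes were set against each other within each array, where a common scaling cancels in large part. Complex I minus ATP synthase, each as its class mean relative to gland and without Cox6a2, was -0.11 to 0.11 on the glands. It was -0.44 to -0.17 with a median of -0.28 on the STAT5ca arrays and -0.42 to -0.21 with a median of -0.28 on the STAT5Δ750 arrays, so that all 13 tumours lay below all glands. Complex II minus ATP synthase was -0.05 to 0.09 on the glands, with medians of -0.62 and -0.46 in the tumour groups, and complex III minus ATP synthase was -0.05 to 0.08, with medians of -0.37 and -0.33. In both, all tumour arrays again lay below all glands. Complex IV minus ATP synthase overlapped between tumours and glands, with medians of -0.06 and 0.07. The medians of complexes I, II and III each lay below those of complex IV and ATP synthase under all 30 settings in both comparisons, and that of complex II below those of complexes I and III under all 30. These are descriptions of classes that share arrays and carry no test.

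**Figure D4:**
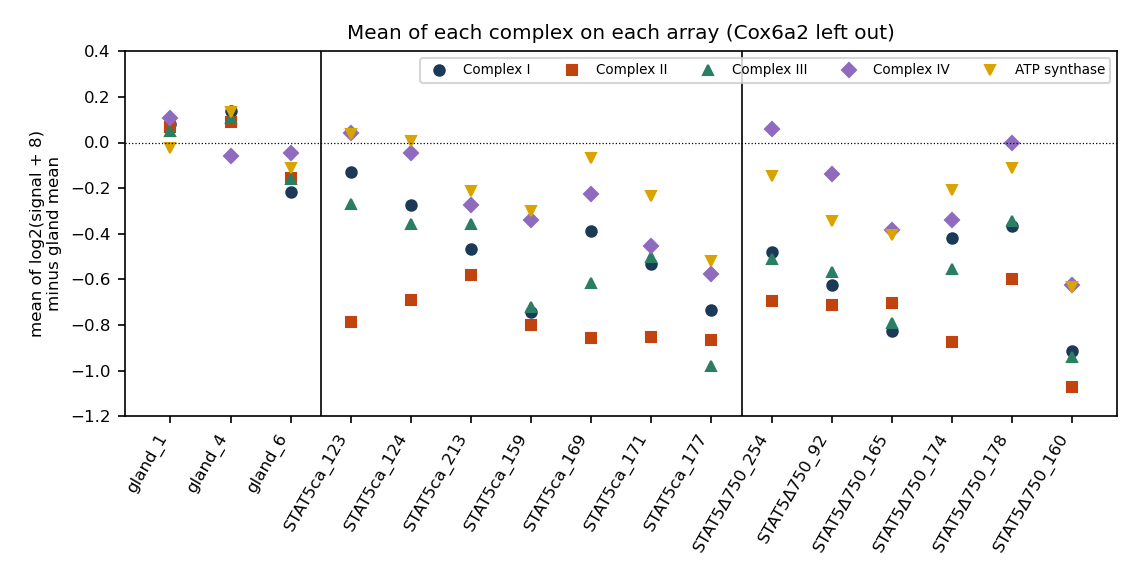
Each symbol is the mean of 1 complex on 1 array, as log2(signal + 8) minus the gland mean, with Cox6a2 left out. Complex II (squares) is the lowest symbol on 6 of the 7 STAT5ca arrays and 5 of the 6 STAT5Δ750 arrays, and the complexes spread apart more on tumours than on the 3 glands.

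Subunits that hold iron-sulfur clusters (Ndufs1, Ndufs7, Ndufs8, Ndufv1, Ndufv2, Sdhb and Uqcrfs1), a grouping made after values were seen, were called lower in 5 of 7 cases in each tumour group, with medians of -0.76 and -0.81. Over all genes tested, 13.2% and 14.0% were called lower. Among these iron-sulfur subunits, only the calls of Ndufs1 and Sdhb held whichever single array was left out. Of the other 69 subunits tested, 11 and 14 were called, with medians of -0.40 and -0.49. In this group, Ndufs8 was called in neither comparison, at -0.39 ± 0.26 and -0.61 ± 0.26. ND5, a complex I subunit encoded in mitochondrial DNA and no member of the gene set, was looked at after its values were seen. It stood at 12.93, 12.83 and 12.91 on the glands, from 9.92 to 12.07 with a median of 11.74 in STAT5ca tumours and from 11.17 to 12.34 with a median of 11.47 in STAT5Δ750 tumours. Its change was -1.43 ± 0.38 (adjusted p = 0.0139) and -1.26 ± 0.39 (adjusted p = 0.0293), with STAT5ca_124 lowest. The calls were lost without gland 1 or 4 (0.0608 and 0.0547), and without gland 1, 4 or 6, STAT5Δ750_165 or STAT5Δ750_160 (0.0546 to 0.0969). Both ND5 calls were also lost with the actin ratio in the model. STAT5ca_124 had the highest actin and Gapdh ratios of all arrays, 5.38 and 1.71. The part of RNA quality in the ND5 values was not tested.

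The comparison of STAT5ca with STAT5Δ750 tumours asked whether tumours of the 2 transgenes differ from each other. By limma 0 of 9252 genes (0% called) and so 0 of 84 members passed, and 0 passed under any alternative, while 525 genes and 2 members had an unadjusted p under 0.05. The median difference over the members, STAT5ca minus STAT5Δ750, was 0.09. The 2 members were Ndufa13 and the ATP synthase epsilon subunit gene Atp5e, at 0.60 and 0.36. For Ndufa13, the highest difference of all 84, the 95% interval ran from 0.09 to 1.11, not adjusted for the number of genes. For Ndufs1 the interval was -0.70 to 0.06, for Sdhb -0.52 to 0.42 and for Cox6a2 -2.55 to 0.57. None of these differences was called, and the intervals do not show that the groups are alike.

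Among tumours, members varied very unequally. Cox6a2 spanned 5.51 between its lowest and highest tumour, Ndufs5 3.64, Cox6b2 3.38, Ndufv3 2.68 and Cox7c 2.63. In Ndufs5, a small complex I subunit, STAT5ca_123 stood at 9.47, while the other STAT5ca tumours were at 6.13 to 6.56 and the glands at 7.46, 7.31 and 6.96. At the other end, Atp5o spanned 0.45, Atp5c1 0.55 and Atp5pb 0.57, all subunits of ATP synthase. Cox6b2 and Cox7c had low signals, as did Ndufs5 on most STAT5ca tumours, while the class mean of ATP synthase was 10.90 to 11.67 on the arrays. The ranges were not adjusted for these differences in level.

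Genes linked to the chain were examined as lists. Over all genes tested, 13.2% were called lower and 6.72% higher in STAT5ca tumours, and 14.0% and 7.61% in STAT5Δ750 tumours. Of 20 genes of the tricarboxylic acid cycle and pyruvate dehydrogenase, 16 were lower and 1 higher in STAT5ca tumours. In STAT5Δ750 tumours 15 were lower and 1 higher, and the medians were -1.12 and -0.95. The list holds not only enzymes but also the pyruvate dehydrogenase kinase gene Pdk4, which is in the brown fat list too. Pdk4 stood at 11.52, 11.70 and 10.55 on the glands and from 4.82 to 10.61 on the tumours. Ogdh, the E1 subunit of oxoglutarate dehydrogenase, changed by -1.84 ± 0.19 (adjusted p = 8.74e-06) and -1.91 ± 0.20 (adjusted p = 1.32e-05). Sucla2, of succinyl-CoA synthetase, changed by -1.57 ± 0.21 and -1.53 ± 0.21, and Fh1, fumarase, by -0.92 ± 0.20 and -1.11 ± 0.21, all called. Fh1 in STAT5ca tumours was not called under the common median (adjusted p = 0.0687). Of 30 electron carriers and further assembly factors 9 and 8 were lower and 0 higher. Coq9, which binds lipid in ubiquinone synthesis, changed by -1.62 ± 0.32 (adjusted p = 0.00224) and -1.72 ± 0.33 (adjusted p = 0.00190). Etfb, which carries electrons from fatty acid oxidation, changed by -0.95 ± 0.23 and -1.36 ± 0.24, called in both. Its STAT5ca call was lost when gland 1 or gland 4 was left out (adjusted p = 0.0666 and 0.0564), and with the common median (adjusted p = 0.0949).

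The median change was above 0 for the proteins of the mitochondrial ribosome. Of 74 genes for mitochondrial ribosomal proteins 4 were higher and 2 lower in STAT5ca tumours and 3 and 1 in STAT5Δ750 tumours, with medians of 0.28 and 0.24. Over all genes tested, 6.72% and 7.61% were called higher and 13.2% and 14.0% lower. Mrpl17, Mrpl52 and Mrps34 lost their STAT5ca calls without gland 1, 4 or 6. In STAT5Δ750 tumours Mrps34 and Mrpl45 did so too, while Mrpl17 kept its call under all 30 alternatives. Of 16 regulators of mitochondrial biogenesis 0 were called in STAT5ca tumours by limma. At an unadjusted p under 0.05, 5 of the 16 differed there, beside 3075 of all 9252 genes. In STAT5Δ750 tumours 2 rose and 1 fell. Myc and Nrf1 rose, by 1.16 ± 0.33 and 0.91 ± 0.31, and Polg, the mitochondrial DNA polymerase, fell by 0.76 on the log2 scale (± 0.23). The Myc call was lost without gland 4 or 6 (adjusted p = 0.141 and 0.0648), Polg without gland 1, 4 or 6 or STAT5Δ750_160 (0.0510 to 0.141), and Nrf1 without any 1 of 9 arrays, namely the 3 glands, STAT5ca_124, STAT5ca_171, STAT5Δ750_254, STAT5Δ750_92, STAT5Δ750_165 and STAT5Δ750_178 (0.0520 to 0.189). Ppargc1a, the coactivator that drives mitochondrial biogenesis in brown fat and muscle, changed by -1.83 ± 0.67 and -1.60 ± 0.68 and was not called (adjusted p = 0.0658 and 0.108). Of 17 hypoxia and glycolysis genes 4 and 5 rose and 1 fell in each, with Pgam1 at 1.24 ± 0.24 and 1.44 ± 0.25 and Aldoa at -0.86 ± 0.19 and -0.87 ± 0.19. The Aldoa call in STAT5ca tumours was lost under the common median (adjusted p = 0.0940). All 12 mitosis genes rose in both groups, with medians of 2.03 and 2.33.

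Markers of other tissues moved with these results. Of 22 skeletal muscle markers tested 22 and 21 were called lower. The summed signal of all 23 on the array was 107256 to 129246 on the glands and 685 to 14967 on STAT5ca tumours (highest on STAT5ca_177). It was 680 to 34746 on STAT5Δ750 tumours (highest on STAT5Δ750_178). Sums take in every marker of a list on the array, tested or not, which was 11 for brown fat. Of 10 brown fat markers, a list that holds Cox7a1 and Cox8b, 6 and 6 were lower, with sums of 6351 to 14587 on the glands (lowest on gland 6), 372 to 3402 and 229 to 2983. Ucp1, the uncoupling protein of brown fat, stood at 11.62, 11.08 and 8.25 on the glands and at 6.56 or lower on all tumours. All 14 adipocyte markers were lower in both groups, with sums of 26293 to 30280, 2007 to 9460 and 1938 to 9591. No marker of these lists was at 0 on any array. The part of muscle and fat in the fall of the respiratory chain genes was not tested. Within the tumours, STAT5ca_177 had the most muscle signal of its group and its lowest subunit mean, -0.69, while STAT5Δ750_178 had the most muscle signal of its group and its highest, -0.26. With low muscle sums, STAT5Δ750_160 (680), STAT5ca_213 (685) and STAT5ca_123 (708) had subunit means of -0.81, -0.37 and -0.11. STAT5ca_124, STAT5Δ750_178 and STAT5ca_123 had the highest brown fat sums of the tumours (3402, 2983 and 1254.5). Their subunit means, -0.20, -0.26 and -0.11, were also the highest with the deposited scaling. The other tumours had brown fat sums of 229 to 728 and subunit means of -0.81 to -0.33. With the common median, STAT5ca_213, with a brown fat sum of 372, had a subunit mean of 0.01, above STAT5Δ750_178 at -0.13. On STAT5ca_124, STAT5Δ750_178 and STAT5ca_123, the marker Cidea stood at 9.84, 9.32 and 9.43 and Pdk4 at 10.40, 10.61 and 6.87. Ucp1 stood at 3.12, 3.10 and 6.56 there. STAT5ca_124 and STAT5Δ750_178 also had the highest adipocyte sums of the tumours, 9460 and 9591.

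**Figure D5:**
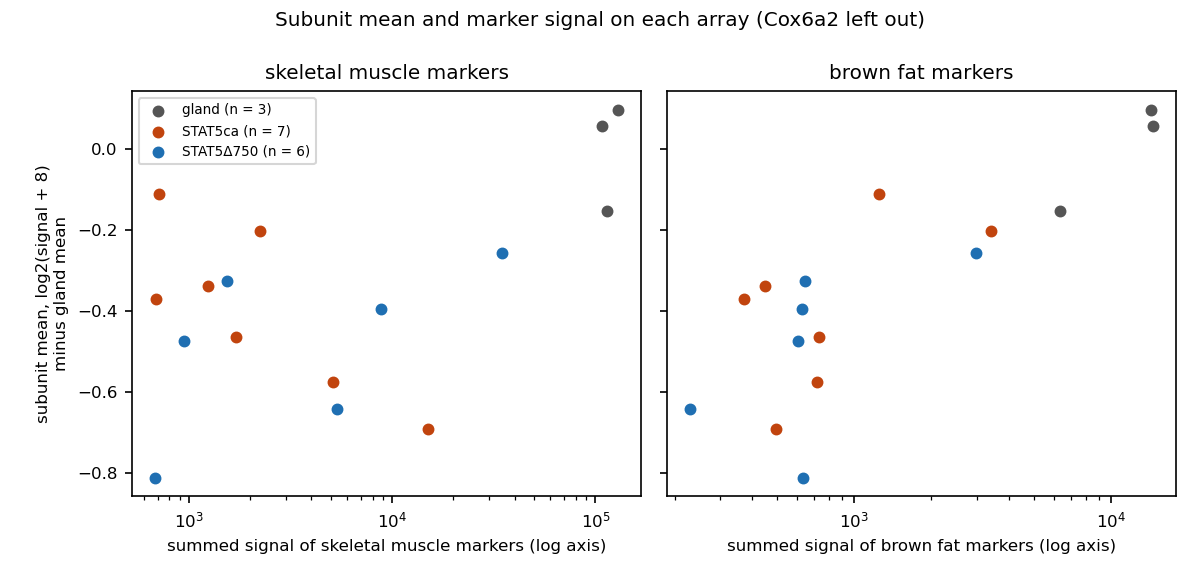
Each point is 1 array, with the mean over subunits relative to gland (log2, without Cox6a2) against the summed signal of skeletal muscle markers (left) or brown fat markers (right), with the summed signal on a log axis. The 3 glands are at the right in both panels, and among tumours the points at high muscle signal are both high (STAT5Δ750_178) and low (STAT5ca_177) on the vertical axis. In the right panel, the tumours with the most brown fat signal (STAT5ca_124, STAT5Δ750_178 and STAT5ca_123) are the highest tumours on the vertical axis. Both panels use the deposited scaling, and with the common median STAT5ca_213 lay above STAT5Δ750_178.

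For the remaining lists, 10 of 10 markers of B and T cells were lower in both groups, with sums of 3578 to 6610 on the glands, 51.3 to 1312 on STAT5ca tumours and 110 to 1868 on STAT5Δ750 tumours. Of 10 endothelial markers 6 and 6 were lower (sums of 2617 to 3435, 569 to 1657 and 913 to 1802). Of 13 luminal markers, 1 and 3 were called higher and 1 and 1 lower in the STAT5ca and STAT5Δ750 groups (sums of 5089 to 13555, 821 to 35185 and 18809 to 33128), and of 9 basal markers 0 rose and 4 and 3 fell (2615 to 3796, 550 to 2823 and 1121 to 6108). Of 11 macrophage markers 0 rose and 0 and 1 fell (17736 to 21212, 8983 to 51326 and 7662 to 19390), with the highest sum on STAT5ca_177. Of 9 fibroblast and collagen markers 1 and 1 rose and 2 and 1 fell (7708 to 10234, 3002 to 14409 and 5015 to 11892). The sums again take in every marker on the array, which was 14 for the luminal and 10 for the basal list. No marker of these 6 lists was at 0 on any array, and their part in the results above was not tested.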

How the data were processed

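The intensity values are MAS5 signals of 22690 probe sets on 16 arrays, deposited by the authors; MAS5 is named in the submitters' processing notes, with its version and scaling target not given in the sources used here. Each array's mean without the outer 2% of values at either end was 250.08 to 250.10, so the deposited values share a global scale, and they were used as deposited. Arrays carry no read depth, and their number, 3, 7 and 6 a group, limits the precision. Groups were taken from the sample titles, and 0 deposited columns lacked a sample.

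Probe sets were named through the platform annotation (20393 with 1 gene symbol, 691 with several, 1606 unnamed), and symbols of all 85 members were found in RefSeq by gene identifier. For each gene the probe set with 1 symbol and the highest mean was used. The members had 158 such probe sets. Of the 46 members with more than 1, all probe sets changed in the same direction as the chosen one for 39 in STAT5ca and 40 in STAT5Δ750 tumours. Values were log2(signal + 8), kept where the signal exceeded 35.4, the 40th percentile, on at least 3 arrays. limma 3.58.1 in R 4.3.3 (lmFit and eBayes, 13 residual degrees of freedom) fitted 3 groups with all 16 arrays, p-values were adjusted by Benjamini-Hochberg over all 9252 genes, and 0.05 was the threshold. The fit was tested on simulated data with known changes. Figures used Python 3.11.15 with pandas 2.3.3 and matplotlib 3.10.9. Alternatives were a common median, quantile normalization, other offsets, filters, probe set means, variance models, array weights, RNA quality covariates, and leaving out each array.

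The members and gene lists were chosen with earlier results of these data known. Named members were, per comparison, up to 4 called genes of each complex with the smallest adjusted p, the 3 highest and 3 lowest changes, the 5 widest and 3 narrowest ranges over tumours, and set lists of core subunits and tissue isoforms, and up to 3 called genes of each other list. The remaining called members, Ndufa6 and Atp5h with their promoters, Atp5md, Atp5l, Atp5pb and the complex I genes near 0 were added after their values were seen. Ndufa4 was counted with complex IV. Mature proteins were not analysed here.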

Additional observations from a re-analysis of the deposited data

Results flagged for a closer look

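In 94 groups of 6 or 7 tumour values, for 40 genes and 7 class means, 11 had a sample whose gap to the nearest other exceeded the 95% limit of Dixon's test, and chance flags about 1 in 20 groups. All values are log2(signal + 8) unless stated.

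STAT5ca_177 was the low sample in 4 groups. It stood at 11.42 for Atp5b (others 11.88 to 11.99), 10.49 for Ndufv2 (others 10.73 to 10.89), 10.02 for Sdha (others 10.68 to 10.98) and 10.17 for Uqcrc2 (others 10.84 to 11.03). This array also had the lowest summed luminal marker signal and the highest macrophage sum of the STAT5ca group, and their part in these values was not tested. STAT5ca_169 was low for Sdhb, at 9.55 against 10.46 to 10.67, and for Cox7a2l, at 10.10 against 10.84 to 11.22. Its mean over the assembly factors relative to gland was the highest of the group, at -0.11 against -0.44 to -0.32. STAT5Δ750_160, whose highest signals were below those of all other arrays, was low for Sdha, at 10.05 against 10.53 to 10.71, and for Sdhd, at 9.43 against 9.98 to 10.17.

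Both remaining samples were high. STAT5ca_123 stood at 9.47 for Ndufs5, where the other STAT5ca tumours were at 6.13 to 6.56, and STAT5ca_124 at 10.48 for Ndufb3, where the others were at 10.10 to 10.24. For 0 named members did all STAT5ca tumours move one way and all STAT5Δ750 tumours the other.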

How the results depend on the processing

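No paired analysis was possible because the groups share no replicate numbers. None of the member values with a call reversed under any of 28 planned and 2 added alternatives. The calls of Cox6a2 and Ndufs1 held under all 30 in both tumour groups, and that of Sdhb under all 30 in STAT5Δ750 tumours. With array quality weights 46 and 51 members were lower in STAT5ca and STAT5Δ750 tumours, 1 was higher in STAT5ca tumours, and 4818 and 4463 genes were called. With the common median 3 and 6 members were lower, beside 867 and 959 of all genes, and the members' median in STAT5ca tumours was -0.13. With the actin ratio as a covariate 9 members and 750 of all genes were lower in STAT5ca tumours, and 921 genes were called. With only the arrays of both groups compared, 9 members and 1071 of all genes were lower there. With the Gapdh ratio 13 members and 1149 of all genes were lower in STAT5Δ750 tumours. Leaving out 1 array gave 3 to 18 members lower and 959 to 2859 genes called in STAT5ca tumours, and 3 to 26 members and 953 to 2746 genes in STAT5Δ750 tumours, with the lowest counts without gland 1 or 4, 13 members without STAT5Δ750_165 or STAT5Δ750_160, and 2859 genes without STAT5ca_177. In an alternative chosen after seeing the data, without STAT5ca_177, STAT5Δ750_174 and STAT5Δ750_178, 2852 genes were called in STAT5ca tumours. Of 216 member values without a call, 80 changed sign under at least 1 alternative and 64 were called under at least 1. The causes were not tested. The precision is limited by 3 glands and by probe sets near background, such as those of Cox6b2 and Cox8c.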
